A study of Mus musculus with 8 samples.

Results

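Voltage-gated sodium and potassium channels open when a cell depolarises. The sodium channels carry the rising phase of the action potential and the potassium channels end it, set the firing rate and hold the resting level. The genes described here are all those whose symbols are Scn with a number and an a or b, or Kcna, Kcnb, Kcnc, Kcnd, Kcnh or Kcnq with a number. This gave 44 of the 24060 symbols in the files, with 10 sodium channel alpha subunits, 4 sodium channel beta subunits and 30 potassium channel subunits. In cortex these channels are known mainly from neurons, where they gather at the axon initial segment, at nodes and in dendrites. Cultured and acute-slice astrocytes are also known to carry voltage-gated potassium currents.

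The libraries came from the cortex of 4 mice aged about 80 postnatal days, named by the animal numbers 579, 580, 581 and 595. Each animal gave an HA IP library, made from RNA bound to ribosomes that carried a hemagglutinin (HA) tag, and an input library made from cleared lysate of the same cortex. All 4 animals were Aldh1l1-creERT2 hemi; Ribotag het, so both groups shared one genotype and differed in the RNA taken. CreERT2 is a Cre recombinase that acts after tamoxifen, here under the control of Aldh1l1, a gene of astrocytes. Ribotag is an allele of Rpl22, which encodes a ribosomal protein, and adds the HA tag only in cells where Cre has acted. The input held RNA of all cells of the tissue, and cells without Cre add untagged ribosomes to the lysate. The tamoxifen schedule is not given in the sources used here, and males and females were used without a label for each animal.

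Values are FPKM as deposited, that is fragments divided by the length of the gene and by the total of the library. Steps between low values gave back the number of fragments behind each value. The total was lowest in the HA IP library of animal 595, at 33834388, and highest in its input library, at 53625125. Aldh1l1 averaged 406 ± 26.2 FPKM in HA IP libraries and 21.8 ± 0.926 FPKM in input libraries (SD, n = 4 each). Fold changes are log2 of HA IP over input, fitted with limma across 15606 tested genes on log2(FPKM + 0.1) after scaling by trimmed mean of M-values (TMM). The scaling factors alone raise a log2 ratio by 0.84 on average over the deposited values. Low genes were raised by less, since the 0.1 FPKM is added after scaling. Kcnh8, for example, had -0.70 with the scaling and -0.94 without it. The median of all tested genes was 0.01 with it and -0.75 without it, so a log2 fold change here is relative to the middle of the genes. The pseudocount of 0.1 FPKM shrinks the fold changes of low genes. The input library of animal 581 stood above the other 3 inputs for 6 of the channel genes described one by one, by a gap of most of the group's range, so counts are also given without it.

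No tested channel gene was called higher in HA IP. Of the 44, 39 had enough fragments to be tested, and 0 were called higher, 36 lower and 3 not called (limma, Benjamini-Hochberg adjusted p under 0.05). The shares among all tested genes were 42.1% higher and 41.1% lower, against 92.3% lower among the channel genes. Their median log2 fold change was -2.81, or -3.61 on the deposited scale. By animal it was -2.75, -2.96, -2.82 and -2.74 in animals 579, 580, 581 and 595. On deposited FPKM all 4 HA IP libraries lay below all 4 input libraries for each of the 39 genes, as they did for 59% of all tested genes. Leaving out the input library of animal 581 gave the same counts, with a median of -2.78. Both libraries of an animal came from the same cortex, so the groups do not differ in the tissue. They differ in the RNA taken and in its handling, such as the DNA depletion of the HA samples. The parts of these in the values cannot be told apart. Which cells the channel RNA in HA IP came from was not tested.

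**Figure D1:**
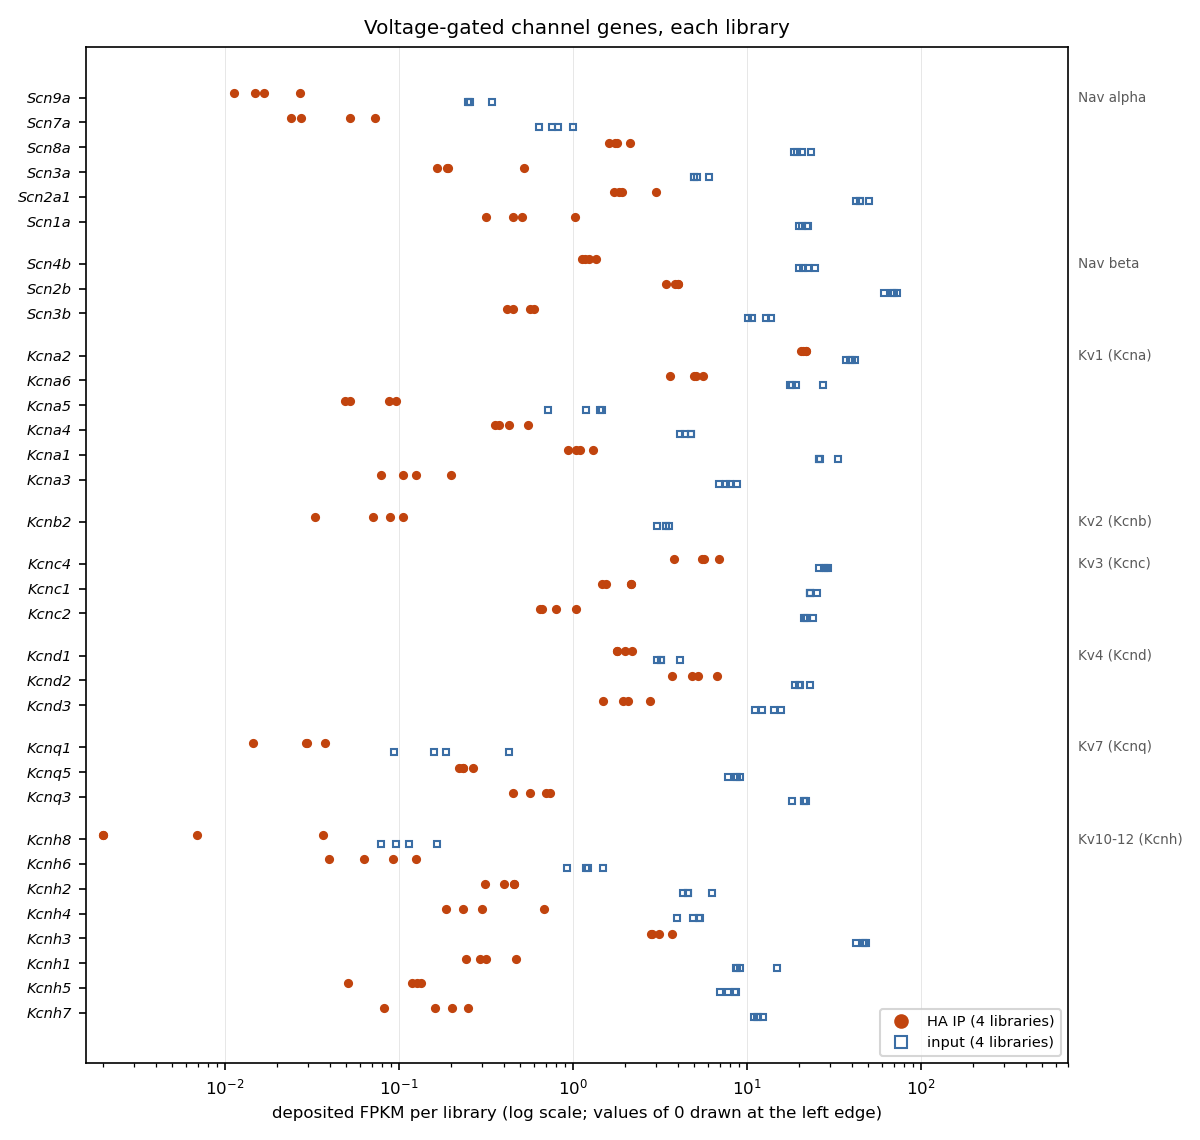
Deposited FPKM of 33 of the tested channel genes in each library (log axis), with filled circles for the 4 HA IP libraries and open squares for the 4 input libraries, grouped by channel family. The circles lie left of the squares in every row, by the least for Kcnd1 and Kcna2 and by the most for Kcnh7, Kcnh5 and Kcna3; the 2 HA IP values of 0 are those of Kcnh8.

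Among the genes that were not called were Kcnd1 at 0.04 (SE 0.13) and Kcna2 at -0.04 (SE 0.07), which both encode potassium channels. The 95% intervals ran from -0.24 to 0.33 for Kcnd1 and from -0.20 to 0.12 for Kcna2. Both intervals include the median of all tested genes, 0.01. On the deposited scale they had log2 fold changes of -0.77 and -0.88 and were called lower, as were all 39 tested channel genes, while 61.6% of all tested genes were lower and 23.3% higher on that scale. At the other end stood Kcnh7 at -4.77 (SE 0.21), Kcnh5 at -4.66 (SE 0.18) and Kcna3 at -4.48 (SE 0.19), so the tested genes ran from -4.77 to 0.04.

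**Figure D2:**
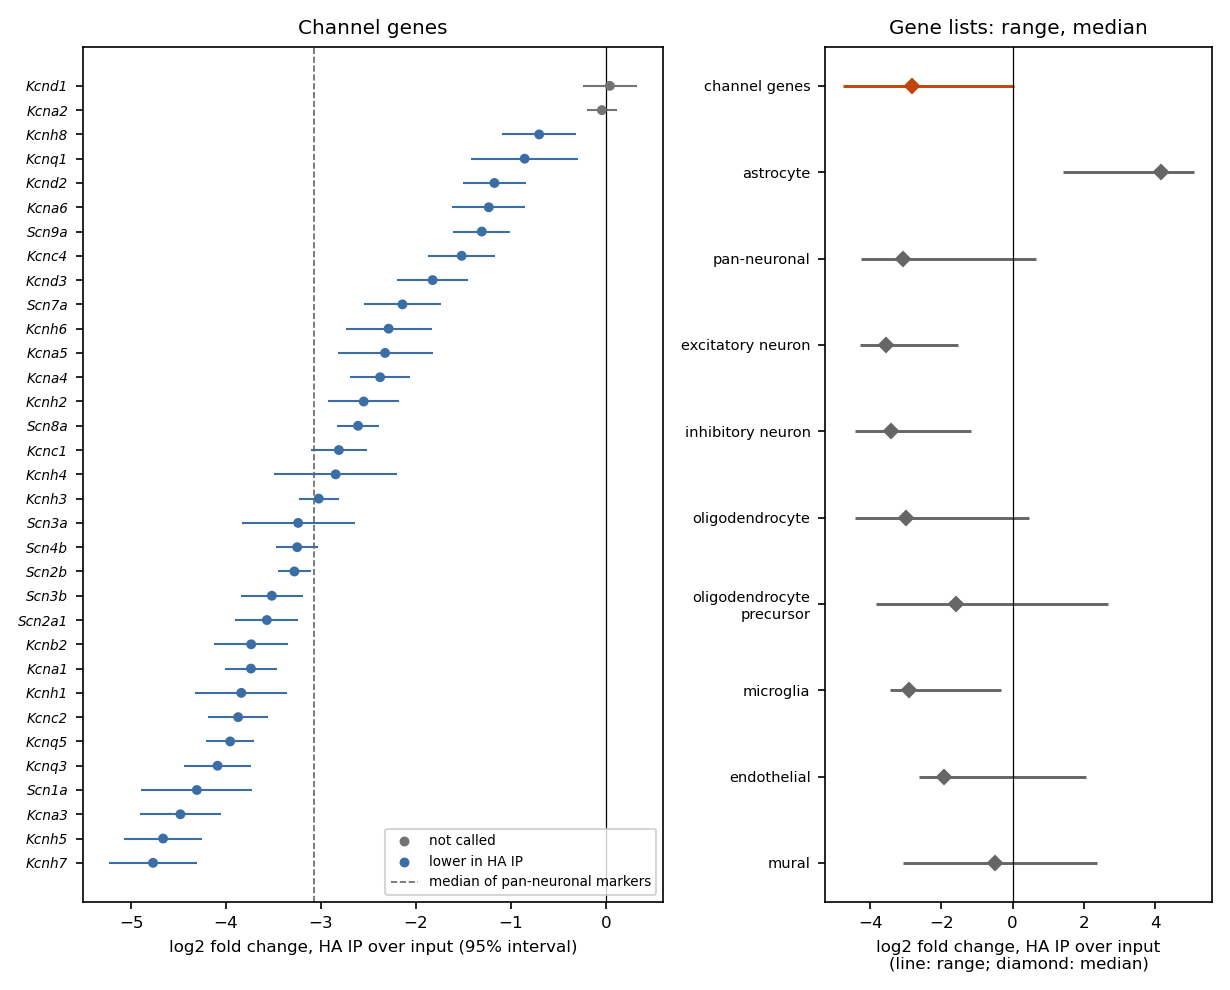
Log2 fold changes of HA IP over input after TMM scaling, for 33 tested channel genes with their 95% intervals (left) and for gene lists as range and median (right). All channel genes drawn lie below 0 but Kcnd1, which with Kcna2 was not called, and they spread on both sides of the pan-neuronal median of -3.07, while the astrocyte markers lie between 1.42 and 5.11.

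Markers of cell types moved with this comparison. Of 25 astrocyte markers 25 were higher (median 4.18), and their summed levels were 20035 to 21369 FPKM in HA IP, against 1539 to 1675 FPKM in input. Of 30 pan-neuronal markers 29 were lower, with a median of -3.07 and sums of 802 to 863 FPKM in HA IP, against 8137 to 8434 FPKM in input. Reep5 was the other, at 0.65, and it was lower on the deposited scale. All 14 excitatory markers were lower (median -3.56, sums of 55.1 to 76.5 FPKM in HA IP, against 1285 to 1523 FPKM in input). All 17 inhibitory markers were lower too (median -3.40, sums of 35.9 to 46.9 FPKM in HA IP, against 934 to 1023 FPKM in input). Within each animal the HA IP sum was 9.67% to 10.3% of the input sum for the pan-neuronal markers, 4.24% to 5.21% for the excitatory ones and 3.65% to 4.61% for the inhibitory ones. It was 10.6% to 12.1% for the 44 channel genes. No marker of these lists was at 0 in all 4 HA IP libraries. The part of these cell types in the channel values was not tested.

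Other glial and vascular markers differed in direction. Of 16 oligodendrocyte markers 15 were lower (median -3.01, sums of 24.6 to 30.3 FPKM in HA IP, against 250.0 to 346 FPKM in input). All 15 microglia markers were lower (median -2.91, sums of 30.7 to 38.9 FPKM in HA IP, against 234 to 252 FPKM in input). Of 12 oligodendrocyte precursor markers 9 were lower and 3 higher, with Olig1 at 2.67, and the sum was above that of input, at 129 to 239 FPKM in HA IP, against 97.5 to 105 FPKM in input. Of 14 endothelial markers 12 were lower and 1 higher (sums of 43.9 to 57.4 FPKM in HA IP, against 46.7 to 59.9 FPKM in input). Of 12 mural markers 5 were lower, 2 higher and 5 not called (sums of 24.5 to 54.1 FPKM in HA IP, against 52.0 to 63.5 FPKM in input). No marker of these lists was at 0 in all HA IP libraries, and their part in the channel values was likewise not tested.

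Because neuronal transcripts were low in HA IP as a whole, each channel gene was also set against them. The same fit was made on deposited log2(FPKM + 0.1) after subtracting the mean of the 30 pan-neuronal markers in each library. A positive value then means that a gene was lowered less than those markers were on average. In this fit 16 channel genes (41% of those tested) stood above the markers, against 91.6% of all tested genes. Another 16 (41%) stood below them, against 3.42% of all tested genes, and 7 were not called. In the TMM-scaled fit 0 channel genes stood above the highest marker. That marker was Reep5 at 0.65, the only marker of the 30 called higher there. The 30 pan-neuronal markers themselves spread around their own mean, with 13 above it and 15 below it. Centring on that mean puts markers on both sides of it by construction. The split of the channel genes was near that of the markers, but the markers are no independent yardstick for it. With a pseudocount of 0.01 in place of 0.1 FPKM, 9 of the 16 stayed above, and all 16 stayed below. The genes that stood above in all 21 other settings tried included Kcnd1, Kcna2, Kcnd2, Kcna6, Kcnc4 and Kcnd3. Those below in every one included Kcna1, Kcnc2, Kcnq3 and Scn1a. Without the input library of animal 581, 18 stood above and 16 below.

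**Figure D3:**
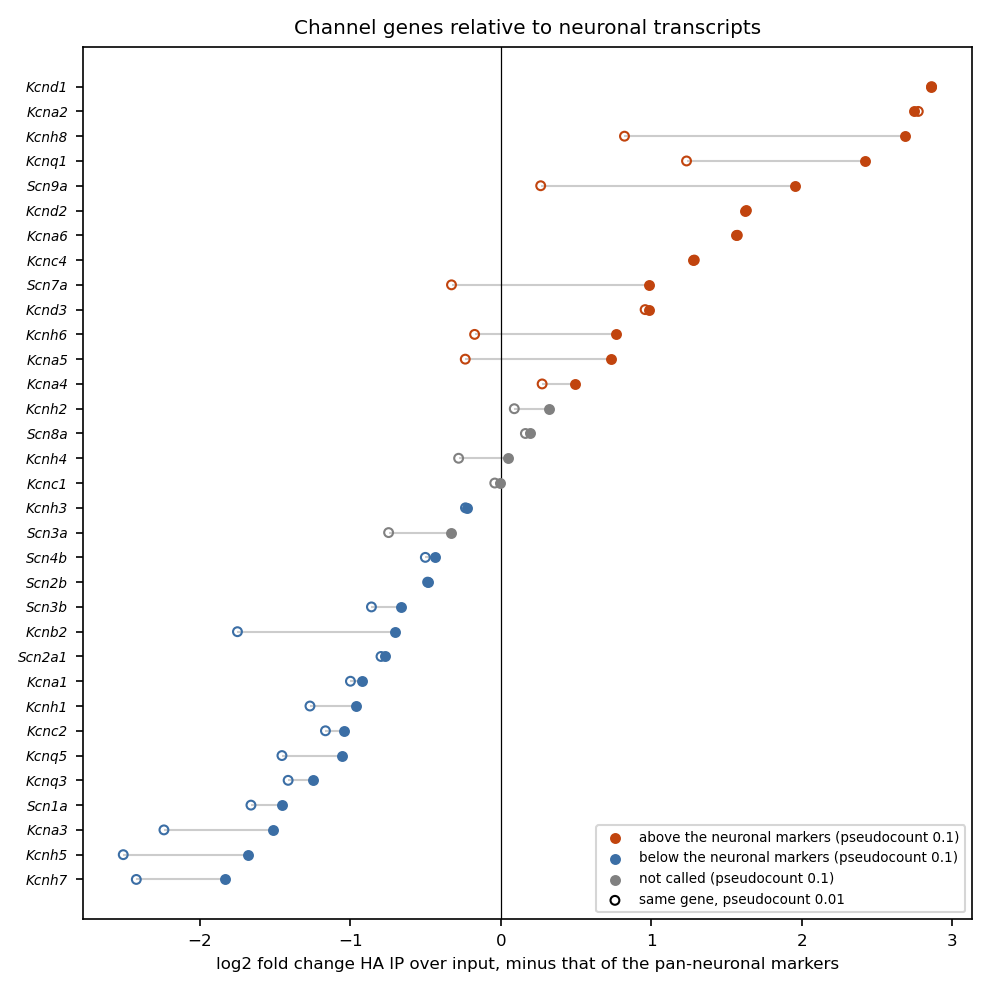
Log2 fold change of HA IP over input for 33 tested channel genes, minus the mean of the pan-neuronal markers, with a pseudocount of 0.1 FPKM (filled) and 0.01 FPKM (open). Kcnd1 and Kcna2 lie more than 2 log2 units above 0 with either pseudocount, while Scn9a, Scn7a, Kcnh6, Kcnh8 and Kcna5, all low genes, move toward or past 0 with the smaller one.

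The sodium channel alpha subunits form the pore. Scn1a, Scn2a1, Scn3a, Scn7a, Scn8a and Scn9a were all called lower in HA IP, as were 41.1% of all tested genes. Scn2a1 (Nav1.2, a main channel of excitatory neurons, now named Scn2a) had 1.92, 1.73, 1.84 and 2.99 FPKM in HA IP, against 45, 44.7, 42.6 and 50.2 FPKM in input. The HA IP library of animal 595 was the highest of its group and still far under every input. The log2 fold change was -3.57 (SE 0.15) (adjusted p = 8.61e-09), and relative to the pan-neuronal markers it was -0.77 (SE 0.13). With excitatory markers as the centre Scn2a1 was at -0.22 and was not called. Scn1a (Nav1.1, prominent in inhibitory interneurons) had 0.509, 0.45, 0.318 and 1.03 FPKM in HA IP, against 20.7, 22.6, 19.9 and 22.2 FPKM in input. It had the lowest fold change of the sodium channels, -4.31 (SE 0.26) (adjusted p = 1.27e-07), and stood -1.46 (SE 0.23) relative to the neuronal markers. Scn8a (Nav1.6, the channel of mature initial segments and nodes) had 1.74, 1.61, 1.8 and 2.12 FPKM in HA IP, against 18.7, 20.8, 23.3 and 19.5 FPKM in input. It changed by -2.61 (SE 0.10) (adjusted p = 4.9e-09), and its value relative to the neuronal markers, 0.20 (SE 0.10), was not called. Scn8a was called above in 6 of the 21 other settings. They included leaving out the input library of animal 581 (0.26) and taking the median of the markers (0.49). Excitatory (0.74) or inhibitory markers (0.40) as the centre also gave that call.

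Scn3a (Nav1.3, high in the embryonic brain) had 0.193, 0.189, 0.166 and 0.527 FPKM in HA IP, against 4.94, 5.14, 4.94 and 6.06 FPKM in input. Animal 595 was again the highest HA IP library, and the log2 fold change was -3.24 (SE 0.27). Relative to the neuronal markers Scn3a had -0.33 (SE 0.23) and was not called, but without the HA IP library of animal 595 it was called below, at -0.58. Scn7a and Scn9a were low. Scn7a (Nax, an atypical member known as a sodium sensor) had 0.024, 0.0525, 0.0274 and 0.0728 FPKM in HA IP, against 0.819, 0.638, 1.0 and 0.755 FPKM in input. Scn9a (Nav1.7, known from pain-sensing neurons) had 0.0167, 0.0149, 0.0114 and 0.0271 FPKM in HA IP, against 0.258, 0.252, 0.251 and 0.342 FPKM in input. Their log2 fold changes were -2.14 for Scn7a and -1.31 for Scn9a, and -3.23 and -2.71 with a pseudocount of 0.01 FPKM, so the values of such low genes rest on the pseudocount. Their calls above the neuronal markers, at 0.98 and 1.96, were lost with that smaller pseudocount, which gave -0.33 and 0.26. In HA IP these genes had 8 to 18 fragments in a library.

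Some alpha genes were too low to test. Scn10a and Scn11a (Nav1.8 and Nav1.9, of peripheral sensory neurons) and Scn4a (Nav1.4, of skeletal muscle) had at most 6 fragments in any HA IP library and at most 33 in any input library. Scn11a was at 0 in all 4 HA IP libraries, against 1 to 19 fragments in input, and a count of 0 allows up to 0.0113 to 0.0153 FPKM in HA IP (3 fragments per library, for counting error only). The make-up of the alpha RNA differed between the groups. Scn8a took 38.2 ± 5.08% of the summed FPKM of the 10 alpha genes in HA IP and 21.8 ± 2.41% in input. Scn1a took 11.3 ± 3.07% in HA IP and 22.6 ± 1.0% in input, while Scn2a1 took 43.3 ± 0.739% in HA IP and 48.3 ± 1.99% in input (SD, n = 4 each). For all 3 genes the groups did not overlap (exact permutation test, two-sided p = 0.0286, the smallest that 4 against 4 allows, adjusted p = 0.0371 over 39 such shares). Of the 39 shares, 30 reached this smallest p, so it is not particular to these genes. The sum itself was 4.89 ± 1.31 FPKM in HA IP, against 94.4 ± 3.78 FPKM in input.

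The beta subunits are single-pass proteins that adjust gating and also act in cell adhesion. Scn2b and Scn4b, which bind the alpha subunit through a disulfide bond, were lower in HA IP and changed by -3.28 (SE 0.08) and -3.25 (SE 0.10). Scn3b, which binds the alpha subunit without such a bond, changed by -3.52 (SE 0.15). Scn2b, Scn3b and Scn4b stood below the neuronal markers, at -0.49, -0.67 and -0.44. Of the 21 other settings, 1 changed the call of Scn2b, 2 that of Scn3b and 4 that of Scn4b. Scn4b was not called with the median of the markers (-0.14) or with inhibitory markers as the centre (-0.23).

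Kv1 channels (Kcna genes) open at low voltages and are known from axons, where Kcna1 and Kcna2 subunits assemble next to the nodes. Of 8 genes 6 were tested, and 5 were lower and 1 not called, while 41.1% of all tested genes were lower. Kv1 had the widest range of log2 fold changes among the families. Kcna2 (Kv1.2) had 21.9, 22, 21.1 and 20.6 FPKM in HA IP, against 37, 39.3, 42 and 40.0 FPKM in input. The HA IP libraries held 8071 to 11608 fragments of it and the inputs 15262 to 24843. HA IP values were close to each other and were 50.3% to 59.3% of the input of the same animal, so Kcna2 was lower on the deposited scale without overlap. Relative to the pan-neuronal markers it stood at 2.75 (SE 0.09) (adjusted p = 1.68e-10). Kcna6 (Kv1.6) had 5.57, 4.98, 5.1 and 3.63 FPKM in HA IP, against 19.1, 18.2, 27.4 and 17.7 FPKM in input. It was lower, at -1.23 (SE 0.17) (adjusted p = 7.54e-05), with 18.6% to 29.1% of input, and stood above the neuronal markers by 1.56 (SE 0.19).

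The other Kv1 genes were lowered far more. Kcna1 (Kv1.1, the partner of Kv1.2 in axons) had 1.04, 1.1, 1.31 and 0.943 FPKM in HA IP, against 26, 26.1, 33.4 and 26.3 FPKM in input. Its log2 fold change was -3.74 (SE 0.12) (adjusted p = 1.99e-09), and it stood below the neuronal markers, at -0.92 (SE 0.14). Kcna3 (Kv1.3, well known from T cells and microglia) had 0.20, 0.126, 0.0792 and 0.105 FPKM in HA IP, against 6.94, 7.55, 8.75 and 8.05 FPKM in input. It was the lowest of the family at -4.48 (SE 0.19) (adjusted p = 9.51e-09), with 7 to 18 fragments in the HA IP libraries and 0.905% to 2.89% of input. Kcna4 (Kv1.4, which gives a fast inactivating current) had 0.357, 0.428, 0.377 and 0.555 FPKM in HA IP, against 4.41, 4.15, 4.77 and 4.76 FPKM in input. Its log2 fold change was -2.38 (SE 0.14). Kcna5 (Kv1.5, known from the atrium of the heart) had 0.0875, 0.0525, 0.0963 and 0.0492 FPKM in HA IP, against 1.19, 0.724, 1.48 and 1.43 FPKM in input, with a log2 fold change of -2.32 (SE 0.22). Both stood above the neuronal markers, by 0.49 and 0.73, but neither with a pseudocount of 0.01 FPKM (0.27 and -0.24). On deposited FPKM Kcna5 was at 3.45% to 7.37% of input by animal, under the 9.67% to 10.3% of the summed markers. Kcna7 and Kcna10 had at most 8 fragments in any library and were not tested.

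**Figure D4:**
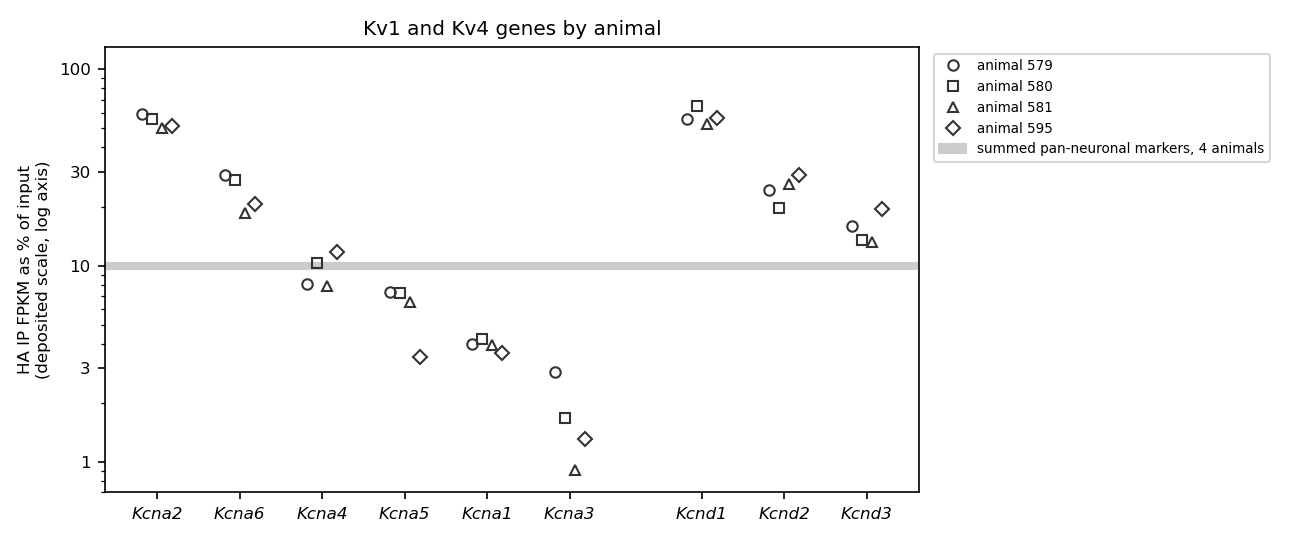
HA IP FPKM as a percent of input FPKM in the same animal (deposited scale, log axis) for the tested Kv1 and Kv4 genes, with the 4 animals as symbols and the grey band for the summed pan-neuronal markers. Kcna2 and Kcnd1 lie between 50.3% and 65.1% in all 4 animals, well above the band at 9.67% to 10.3%, and Kcna1, Kcna3 and Kcna5 lie under it in all 4.

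Ratios taken within each library do not depend on library scaling. They were examined for the 15 pairs of tested Kv1 genes and the 3 pairs of Kv4 genes, a choice made after the values were seen. The log2 ratio of Kcna2 to Kcna3 was 7.47 ± 0.533 in HA IP and 2.34 ± 0.0672 in input. That of Kcna2 to Kcna1 was 4.29 ± 0.198 in HA IP and 0.51 ± 0.125 in input. Kcna6 exceeded Kcna1 in HA IP, at 2.13 ± 0.226, and not in input, at -0.45 ± 0.126 (SD, n = 4 each). In 16 of the 18 pairs the exact permutation test gave p = 0.0286, the smallest that 4 against 4 allows (two-sided, adjusted p = 0.0321 over 18 pairs). The other pairs were Kcna5 to Kcna1 (p = 0.0857, adjusted p = 0.0908) and Kcna5 to Kcna4 (p = 0.171), in the same exact test. On deposited FPKM, all 4 HA IP libraries lay below all 4 inputs for 59% of all tested genes and above them for 22%. Pairs of other genes were not examined, so the smallest p is not shown to be particular to these families.

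Most of the Kv1 genes lie in a pair of clusters, which hold genes that differed this much as neighbours. Kcna4 on chromosome 2 and Kcna7 on chromosome 7 lie in neither. In GRCm38.p6, Kcna3 (chr3:107036162-107038129) and Kcna2 (chr3:107090883-107115005) lie 52753 bases apart on chromosome 3, with no protein-coding gene between them. Kcna10 lies 68137 bases beyond Kcna2. On chromosome 6, Kcna5 (chr6:126532551-126535555) is followed after 100907 bases by Kcna1 (chr6:126636463-126645801), and Kcna6 (chr6:126708328-126740834) lies 62526 bases further on, again with no protein-coding gene between. The promoters of one gene of each cluster that was lowered little and one that was lowered more are shown for this contrast. They are RefSeq sequences on GRCm38.p6, from 250 bases before to 50 bases after an annotated start, written 5′ to 3′ on the gene's strand. Capitals mark an E-box (CAGCTG) or a GC box (GGGCGG or its reverse complement).
Kcna2, chr3:107101317-107101616, plus strand: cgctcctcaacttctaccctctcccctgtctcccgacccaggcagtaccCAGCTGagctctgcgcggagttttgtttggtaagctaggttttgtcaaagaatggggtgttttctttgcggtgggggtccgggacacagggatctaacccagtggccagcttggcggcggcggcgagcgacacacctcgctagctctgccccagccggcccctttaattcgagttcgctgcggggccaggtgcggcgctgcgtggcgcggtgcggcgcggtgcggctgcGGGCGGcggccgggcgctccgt
Kcna3, chr3:107035912-107036211, plus strand: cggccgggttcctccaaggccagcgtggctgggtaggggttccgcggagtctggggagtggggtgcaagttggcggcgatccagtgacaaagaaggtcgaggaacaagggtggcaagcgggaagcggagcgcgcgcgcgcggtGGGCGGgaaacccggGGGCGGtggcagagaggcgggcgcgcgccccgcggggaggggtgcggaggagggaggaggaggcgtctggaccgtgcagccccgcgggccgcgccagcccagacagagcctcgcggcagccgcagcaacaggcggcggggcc
Kcna6, chr6:126740625-126740924, minus strand: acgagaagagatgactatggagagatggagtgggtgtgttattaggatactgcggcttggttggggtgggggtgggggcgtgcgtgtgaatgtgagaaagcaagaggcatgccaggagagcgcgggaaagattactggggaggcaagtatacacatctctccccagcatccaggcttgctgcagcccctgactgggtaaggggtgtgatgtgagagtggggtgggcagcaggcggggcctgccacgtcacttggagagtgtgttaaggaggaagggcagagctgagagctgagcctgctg
Kcna5, chr6:126535506-126535805, minus strand: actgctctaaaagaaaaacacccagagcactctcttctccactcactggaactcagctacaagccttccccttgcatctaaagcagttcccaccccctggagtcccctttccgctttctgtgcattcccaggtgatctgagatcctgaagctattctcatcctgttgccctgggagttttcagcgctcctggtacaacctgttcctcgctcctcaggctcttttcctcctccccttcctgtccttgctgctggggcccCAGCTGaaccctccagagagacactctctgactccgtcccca
The windows of Kcna2 and Kcna3 were rich in CpG, with 31 and 37 CpG and 66.7% and 75% G or C, against medians of 7 CpG and 52.7% over 32851 RefSeq promoters. Those of Kcna6 and Kcna5 held 8 and 4 CpG. The start used for Kcna2 lies inside the span of the gene. CAGCTG, which occurred in 16.3% of all promoters, was found once each for Kcna2 and Kcna5. GGGCGG on either strand, found in 35.7% of all promoters, occurred once for Kcna2, in 2 places for Kcna3 and not for Kcna6 or Kcna5. TATAAA (13.6% of all promoters), CCAAT (37.4%) and TTCAGCACC (0.371%), which is the left part of the RE1 element, were searched on both strands and were in none of the 4 windows. The 4 genes were picked by their fold changes, and any link of promoter content to the fold changes was not tested. Kcna1, the most lowered gene of the chromosome 6 cluster, had no promoter sequence to show. Kcna5 stands in its place, with only 5 to 13 fragments in the HA IP libraries. Kcna2 shares 2017 bases of its span with the non-coding gene Gm38712, and Kcna6 shares 24379 with Gm33581. The strand setting of the counting is not given in the sources used here, so reads of such overlapping genes may not be separable.

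Kv2 channels (Kcnb genes) give the delayed rectifier current and form clusters on the cell body. Kcnb2 (Kv2.2) had 0.0748 ± 0.0312 FPKM in HA IP, against 3.38 ± 0.225 FPKM in input, with a log2 fold change of -3.73 (SE 0.17).

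Kv3 channels (Kcnc genes) open at high voltages and close fast, which lets fast-spiking interneurons fire at high rates. Kcnc1 (Kv3.1) had 2.16, 1.56, 2.16 and 1.48 FPKM in HA IP, against 23.1, 23.2, 25.3 and 23.1 FPKM in input. It changed by -2.81 (SE 0.13) (adjusted p = 2.13e-08), which was -0.01 relative to the neuronal markers and not called. Kcnc2 (Kv3.2) changed by -3.87 (SE 0.14). Kcnc4 (Kv3.4, the inactivating member) had 5.51, 5.68, 6.96 and 3.84 FPKM in HA IP, against 28.7, 29.3, 26.1 and 27.6 FPKM in input. Animal 595 had the lowest HA IP value, and HA IP was 13.9% to 26.6% of input. The log2 fold change of Kcnc4 was -1.52 (SE 0.16) (adjusted p = 8.01e-06), and it stood 1.27 (SE 0.18) above the neuronal markers (adjusted p = 4.32e-05).

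Kv4 channels (Kcnd genes) carry the A-type current of dendrites, which activates below threshold and inactivates fast. The median of this family, -1.17, was the closest to 0 among the families. Each of its 3 genes stood above the neuronal markers, as did 91.6% of all tested genes. Kcnd1 (Kv4.1) had 1.8, 1.99, 2.18 and 1.8 FPKM in HA IP, against 3.2, 3.06, 4.14 and 3.19 FPKM in input. Its HA IP libraries held 119 to 191 fragments and its inputs 211 to 334, and HA IP was 52.7% to 65.1% of input. Relative to the neuronal markers it had 2.86 (SE 0.14), the highest value of all channel genes (adjusted p = 4.74e-09). No other RefSeq gene overlaps Kcnd1, which lies at chrX:7823759-7838278. Kcnd2 (Kv4.2, the main dendritic subunit) had 4.85, 3.7, 5.25 and 6.72 FPKM in HA IP, against 19.9, 18.8, 20.2 and 23.1 FPKM in input. It was lower by a log2 fold change of -1.17 (SE 0.15) (adjusted p = 3.59e-05) and stood 1.62 (SE 0.12) above the neuronal markers. Kcnd3 (Kv4.3) had 1.95, 1.5, 2.08 and 2.76 FPKM in HA IP, against 12.3, 11.2, 15.7 and 14.2 FPKM in input. It changed by -1.82 (SE 0.17) and stood 0.98 (SE 0.14) above the neuronal markers. The log2 ratio of Kcnd2 to Kcnd3 was 1.31 ± 0.0223 in HA IP and 0.63 ± 0.178 in input, and that of Kcnd1 to Kcnd2 was -1.37 ± 0.415 in HA IP and -2.60 ± 0.235 in input.

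Kv7 channels (Kcnq genes) give the slow M-current that limits repetitive firing. Kcnq3 (Kv7.3, a neuronal subunit of the M-current) had 0.742, 0.701, 0.451 and 0.568 FPKM in HA IP, against 18.3, 21.8, 21.4 and 21.4 FPKM in input. Its log2 fold change was -4.09 (SE 0.16) (adjusted p = 5.09e-09), and stood below the neuronal markers, at -1.25 (SE 0.16). Kcnq5 (Kv7.5, which also contributes to the M-current) had 0.223, 0.232, 0.234 and 0.268 FPKM in HA IP, against 7.84, 8.81, 8.62 and 9.19 FPKM in input. Its log2 fold change was -3.96 (SE 0.11), and the HA IP libraries held 2.64% to 2.92% of the input level. Kcnq1 (Kv7.1, of heart and inner ear) had 0.0145, 0.0374, 0.0296 and 0.0294 FPKM in HA IP, against 0.158, 0.0937, 0.431 and 0.186 FPKM in input. With 2 to 5 fragments in the HA IP libraries, its fold change of -0.85 (SE 0.25) and its value of 2.42 above the neuronal markers are limited by the pseudocount, and its locus also holds the non-coding gene Kcnq1ot1.

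The Kcnh genes encode the ether-a-go-go family (Kv10 to Kv12), which includes the hERG channel of the heart. All 8 were lower, as were 41.1% of all tested genes, and the median of the 8 was -2.93. Kcnh7 (Kv11.3) had 0.203, 0.161, 0.0824 and 0.25 FPKM in HA IP, against 11, 12.5, 11.4 and 11.6 FPKM in input. This was the lowest fold change of all channel genes, -4.77 (SE 0.21) (adjusted p = 1.13e-08), and each HA IP library held at most 2.16% of its input. Kcnh5 (Kv10.2) had 0.119, 0.134, 0.126 and 0.0511 FPKM in HA IP, against 7.05, 8.6, 7.78 and 8.68 FPKM in input. It changed by -4.66 (SE 0.18) (adjusted p = 6.29e-09) and, like Kcnh7, stood below the neuronal markers, at -1.68 (SE 0.19) against -1.83 (SE 0.18) for Kcnh7. Kcnh3 (Kv12.2), the highest of the family with 3.13 ± 0.414 FPKM in HA IP, against 46.4 ± 2.68 FPKM in input, changed by -3.02 (SE 0.09). Its value relative to the neuronal markers was called below at -0.23, and lost that call, at -0.23 to -0.18, when animal 579 or 580 or any of 5 single libraries was left out.

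Kcnh1 (Kv10.1) changed by -3.84 (SE 0.22), Kcnh2 (Kv11.1, the hERG channel) by -2.55 (SE 0.17) and Kcnh4 (Kv12.3) by -2.85 (SE 0.29). Kcnh2 was not called relative to the neuronal markers, at 0.32, but was called above, at 0.46 and 0.44, without the HA IP library of animal 595 or the input library of animal 581. The median of the markers (0.61) and excitatory (0.86) or inhibitory markers (0.52) as the centre also gave that call. In all, its call changed in 6 of the 21 other settings. Kcnh6 (Kv11.2) had 0.0925, 0.0397, 0.0627 and 0.125 FPKM in HA IP, against 0.92, 1.48, 1.23 and 1.19 FPKM in input. It stood above the neuronal markers by 0.76, but at -0.17 and not called with a pseudocount of 0.01 FPKM. Kcnh8 (Kv12.1) had 0, 0, 0.0365 and 0.00692 FPKM in HA IP, against 0.0789, 0.165, 0.114 and 0.0961 FPKM in input. Its HA IP libraries held 0, 0, 7 and 1 fragments against 12 to 25 in input, so its log2 fold change of -0.70 (SE 0.17) is a value of the pseudocount as much as of the gene.

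The potassium channel RNA that remained in HA IP had a different make-up from that of input. The 30 potassium channel genes summed to 56.7 ± 1.82 FPKM in HA IP, against 406 ± 21.2 FPKM in input (SD, n = 4 each). Kcna2 alone took 37.9%, 40.5%, 36.4% and 36.6% of this sum in the HA IP libraries of animals 579, 580, 581 and 595, against 9.63%, 9.82%, 9.66% and 9.87% in their inputs. The mean difference was 28.1 percentage points (exact permutation test, two-sided p = 0.0286, adjusted p = 0.0371 over 39 shares), with the HA IP share above the input share in 4 of 4 animals. Of the 39 shares, 30 reached this same p, so it is not particular to Kcna2. A permutation within the 4 animals gave p = 0.125, the smallest that exact test allows, for the Kcna2 share. The difference was 27.2 to 28.6 points when any animal or library was left out. Kcna6 took 8.51 ± 1.42% in HA IP and 5.05 ± 0.875% in input, and Kcnd2 took 9.03 ± 2.14% in HA IP and 5.06 ± 0.495% in input. Kcnd1 took 3.43 ± 0.326% in HA IP and 0.834 ± 0.0826% in input. In the other direction Kcnq3 took 1.09 ± 0.247% in HA IP and 5.10 ± 0.323% in input. Kcnc4 overlapped between groups, with 9.69 ± 2.2% in HA IP and 6.90 ± 0.660% in input (exact p = 0.0857, adjusted p = 0.101). Shares of one sum are tied to each other, and they were chosen after the values were seen. They also rest on the gene lengths in the deposited FPKM, which came out at 11579 bases for Kcna2. Such a length may not be that of a single transcript.

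**Figure D5:**
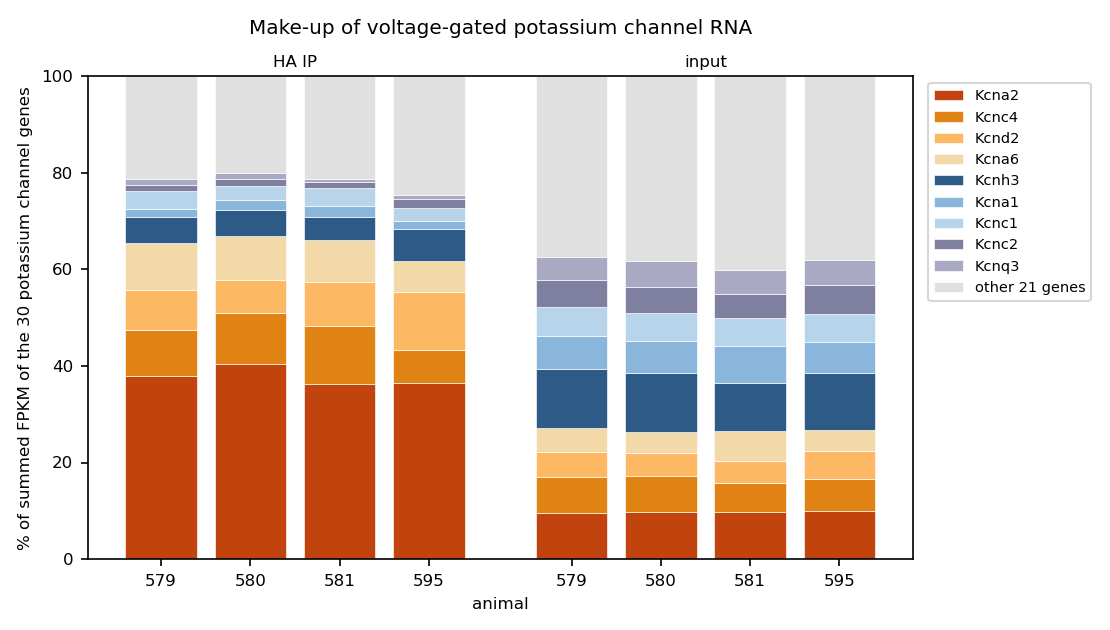
Share of each potassium channel gene in the summed FPKM of the 30 genes, one bar per library, with the 4 HA IP libraries left and the 4 input libraries right. Kcna2 (lowest segment) fills 36.4% to 40.5% of the HA IP bars and 9.63% to 9.87% of the input bars.

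Genes that assemble with or anchor these channels were set beside them. Among all tested genes 41.1% were lower and 42.1% higher. Silent subunits, which form no channel alone but modify Kv2, were lower in 8 of 9 tested genes, with a median of -3.06. The lowest was Kcnv1 (Kv8.1) at -4.06 (SE 0.15). Kcng4 (Kv6.4) was higher, with 6.5 ± 1.49 FPKM in HA IP, against 2.57 ± 0.490 FPKM in input, and its log2 fold change was 2.11 (SE 0.19, adjusted p = 2.95e-06). It was also higher on the deposited scale, at 1.29. Auxiliary subunits of Kv channels were lower in 9 of 12 tested genes and higher in 2, with a median of -2.70. Dpp10, a membrane partner of Kv4, was the lowest at -4.36 (SE 0.09). Kcne1l, a single-pass regulatory subunit now named Kcne5, had 24.5 ± 1.81 FPKM in HA IP, against 1.52 ± 0.194 FPKM in input, with a difference of 4.74 on the log2 scale (SE 0.11). Kcnip3, a calcium-binding partner of Kv4, was called higher at 1.03 (SE 0.24), but had 0.19 and was not called on the deposited scale.

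The intracellular fibroblast growth factors that bind sodium channels were lower in 3 of 4 genes, with Fgf14 lowest at -2.96 (SE 0.18) and Fgf11, at 0.07 (SE 0.13), not called. Among 17 tested anchors of initial segments and nodes, 12 were lower, 2 higher and 3 not called, with a median of -1.27. Dlg2, a scaffold known to bind Kv1 channels, was the lowest at -3.98 (SE 0.12). Ank2 (ankyrin-B) was higher at 1.71 (SE 0.12), with 85.9 ± 16.6 FPKM in HA IP, against 46.3 ± 2.26 FPKM in input. The adhesion molecule gene Nrcam was called higher at 0.92 (SE 0.08), but had 0.08 and was not called on the deposited scale. Of 13 tested genes for calcium-activated or sodium-activated potassium channels and for the hyperpolarisation-activated HCN channels, 10 were lower and 2 higher, with a median of -2.16. Kcnt2, a sodium-activated channel, was the lowest at -4.24 (SE 0.37). Kcnn2 (SK2, a small-conductance calcium-activated channel) was higher, with 92.5 ± 22.8 FPKM in HA IP, against 19.4 ± 2.28 FPKM in input, and its log2 fold change was 3.06 (SE 0.19, adjusted p = 1.43e-07). Its relative Kcnn3 (SK3) was called higher at 1.05 (SE 0.15), but had 0.23 and was not called on the deposited scale.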

How the data were processed

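Polyadenylated RNA of 8 cortex libraries, 4 HA IP and 4 input, was measured. Per the labels' protocols, DNA was depleted from the HA samples and 100 ng of RNA entered each stranded, paired-end library. Per the submitters' processing notes, STAR, HTSeq and bcl2fastq 2.17 were used, with genome build mm10; no further version, annotation or strand setting is given. Each of the 8 deposited files holds 1 value per gene symbol with no unit named. The authors' deposited values were taken to be FPKM, since fitting 1 length per gene and 1 total per library turned 142230 of the 142235 values above 0 into whole fragments (tolerance 0.001). No channel gene had a fitted length above its RefSeq span. The FPKM were not treated as counts.

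Genes with at least 0.246 CPM (10 fragments in a library of median size) in 4 libraries and 15 fragments in all were tested, 15606 in number. FPKM were divided by TMM factors (0.3 of M-values and 0.05 of A-values trimmed) computed over all genes. limma 3.58.1 in R 4.3.3 was fitted with an intensity trend on log2(FPKM + 0.1), HA IP against input, two-sided, with Benjamini-Hochberg adjustment over all genes tested and a threshold of 0.05. A second fit subtracted the mean log2(FPKM + 0.1) of 30 pan-neuronal markers from each library. Shares and ratios were tested with exact permutation tests (scipy 1.17.1), which permuted all 8 libraries without the animal and cannot go below p = 0.0286; within the 4 animals they cannot go below p = 0.125. The code was tested on simulated data. Matching of symbols to RefSeq (GRCm38.p6) found all 44 channel genes, of which 30 had a promoter sequence in the table used.

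Animal numbers pair the libraries, since both libraries of a number come from the same mouse. After subtracting group means, their correlations were 0.219, 0.317, 0.398 and 0.389, and no pairing of different animals exceeded 0.114. The main fits left the animal out, as did the exact tests over all libraries. Their p-values rest on the spread among libraries within each group, from these 4 animals, which limma moderates across genes. Only the animal block and the permutations within animals used the pairing. The channel genes and all lists were chosen with earlier results of these data known. Values in each library are given for the genes not called, the 6 highest and 6 lowest fold changes, the genes above the pan-neuronal markers and 12 standard cortical channels. Of each list of partner genes the highest, the lowest and up to 3 against the majority are named. The alternatives tried were pseudocounts of 0.01 and 1 FPKM, other filters, scalings and centres, no trend, the animal block, and leaving out each animal and each library. Of the channel genes, 6 are counted in the totals but are not reported here one by one. Symbols turned into dates (27 of 24060) are not named.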

Additional observations from a re-analysis of the deposited data

Results flagged for a closer look

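Among 66 groups of 4 libraries, those of 33 tested channel genes in HA IP and in input, 10 had a library far from the other 3, by a gap above the 95% critical value of Dixon's test for 4 values. Chance alone marks about 1 group in 20. The input library of animal 581 was the high one in 6 of these groups. It held 33.4 FPKM of Kcna1 against 26.0 to 26.3 in the other inputs, 27.4 FPKM of Kcna6 against 17.7 to 19.1 and 25.3 FPKM of Kcnc1 against 23.1 to 23.2. It also held 4.14 FPKM of Kcnd1 against 3.06 to 3.2 and 15 FPKM of Kcnh1 against 8.62 to 9.15. For Kcnh2 it had 6.33 FPKM against 4.32 to 4.62. The input library of animal 579 was low for Kcnq3, at 18.3 FPKM against 21.4 to 21.8. The input library of animal 595 was high for Scn9a, at 0.342 FPKM against 0.251 to 0.258. The HA IP library of animal 595 was high for 2 sodium channel genes, with 2.99 FPKM of Scn2a1 against 1.73 to 1.92 in the other HA IP libraries and 0.527 FPKM of Scn3a against 0.166 to 0.193. Each of these libraries stayed on its group's side of the other group. What set them apart was not tested.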

How the results depend on the processing

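The counts of 0 channel genes higher and 36 lower held in every setting tried but the deposited scale, on which all 39 were lower and 0 not called, and settings with other genes tested. Without a filter 6 of 44 were not called. The animal block (replicate block) changed no call of a channel gene, with 36 lower and 3 not called, and 16 above and 16 below the neuronal markers. The median log2 fold change was -3.10 and -2.07 with pseudocounts of 0.01 and 1 FPKM and -3.61 on the deposited scale, where 3643 of all genes were higher. There Kcnd1 turned to -0.77. With an animal or a library left out, the counts were 0, 36 and 3 each time, the median ran from -2.86 to -2.77, and 15 to 18 genes stood above and 15 to 17 below the neuronal markers. The Kcna2 share differed by 27.2 to 28.6 points, with exact p from 0.0571 to 0.1, the smallest those designs allow. With pairing by animal (replicate block) the 28.1 points gave an exact p of 0.125, again the smallest possible, so no share or ratio can pass 0.05 there.

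The comparison with neuronal markers depended most on the pseudocount, by its construction. With 0.01 FPKM, 9 genes stood above and 12 were not called, and Kcna5 (-0.24), Kcnh6 (-0.17) and Scn7a (-0.33) changed sign from a called value, as did Kcnh4 (-0.28), called in neither. With 1 FPKM, 28 stood above and 6 below, and 222 of all genes stood below. Then Kcna3 (0.47), Kcnb2 (1.41), Kcnc1 (0.31), Kcnh1 (0.37), Kcnh5 (0.41), Kcnh7 (0.0083), Kcnq5 (0.48), Scn3a (1.13), Scn3b (0.35) and Scn4b (0.065) turned positive. With the median of the markers 326 of all genes stood below, and Kcnh3 (0.066) turned positive. Centred on excitatory markers, 8 channel genes and 213 of all genes stood below, and Kcnc1 (0.54), Kcnh3 (0.32), Scn2b (0.060) and Scn4b (0.11) turned positive. Scn2a1 (-0.22), Kcnb2 (-0.16), Kcnh1 (-0.41) and Scn3b (-0.12) stayed negative but lost their call there. Scn8a (0.74), Kcnh2 (0.86) and Kcnh4 (0.59) gained a call above. Over the genes described one by one, 1294 values kept their call or lack of one, 18 gained a call, 18 lost one and 19 changed sign with a call on either side. Of the 1294, 18 changed sign without a call on either side, in 5 genes. For the genes with under 20 fragments in HA IP, depth limits the fold change.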
